A study of Homo sapiens with 9 samples.

Results

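The mRNAs of 10 focal adhesion plaque proteins were followed through RNA sequencing of a migrating human cell line: TLN1, VCL, PXN, ZYX, PTK2, TNS1, TNS3, FERMT2, ILK and PARVA. They were chosen by gene symbol as cytoplasmic parts of the adhesion plaque, with earlier results of these data known. All 10 were among the 62709 genes of the count table and among the 19426 genes that passed the expression filter. The cells were hTERT-MSC, a line of human adipose mesenchymal stem cells immortalised with telomerase. They were serum-starved overnight, left for 2 h on uncoated inserts with 3 µm pores, and then drawn for 1 h by 50 ng/mL PDGF-BB, a growth factor for mesenchymal cells, in the lower well. Pseudopodia, which are cell processes that had passed the pores, were scraped from the lower side, and cell bodies were taken afterwards from above. The whole-cell group is labelled with that treatment too, without its own account of how the cells were collected. Each of the 3 groups (pseudopodia, cell body, whole cell) had 3 libraries, and every group had received PDGF-BB, so no library shows untreated cells. The cells are a single line, the pseudopodia of an insert are a pool over many cells, and the labels do not say that the libraries came from separate cultures. P-values therefore measure the spread between these libraries, which may be technical.

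Focal adhesions are plaques at which integrins, the transmembrane receptors for extracellular matrix, are tied to actin filaments. Talin and kindlin bind integrin tails and switch integrins to their active state, vinculin and the tensins strengthen the tie to actin, and focal adhesion kinase with its scaffold paxillin signals from the plaque. ILK, PINCH and parvin form a further complex under the integrin tail, and zyxin is recruited to plaques and stress fibres under tension. In mesenchymal cells new adhesions form under the advancing protrusion and mature or disassemble behind it, and some mRNAs, of which RAB13 is a well known case, collect in protrusions through GA-rich stretches of their 3′ untranslated region.

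Among the 10 genes, the 3′ untranslated regions of TNS1, TNS3 and PARVA held the most purine-rich stretches. They are shown beside that of VCL, whose mRNA was lower in pseudopodia, and that of RAB13. For each gene the GENCODE 29 transcript with the longest 3′ untranslated region was read on its own strand, and the 30-base window with the most A and G was taken, with at least 8 of each. All 5 windows lie in exons, within the untranslated part. Capitals mark A and G, and the sequences run 5′ to 3′.
TNS1: AGAGGGGAGGGGGAAAAGAGAGAGAGAGAG
TNS3: AGAAGGGAGGAtGAGGAAAAAGAGAAGAAA
PARVA: GGAGGAGGAGGAGGAGGAGGAGGAGtAGGG
VCL: GAAGGAAtGGAAGtGGcAAAGGttAAcAGG
RAB13: AGAAAGGAAAAAAAGGAAGAGAGAGGAAGG

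On GRCh38 these windows are chr2:217804276-217804305 on the minus strand for TNS1, chr7:47276795-47276824 on the minus strand for TNS3, chr11:12533809-12533838 on the plus strand for PARVA, chr10:74120374-74120403 on the plus strand for VCL and chr1:153981919-153981948 on the minus strand for RAB13. The TNS1 window held 30 purines, as many as the RAB13 window, and 0.97% of the 13772 3′ untranslated regions read had a window with as many. The windows of TNS3 and of PARVA held 29, which 2.58% of regions reached. The best windows of the others held 25 purines for PTK2, 24 for VCL and for PXN, 23 for TLN1 and for FERMT2, 19 for ZYX and 18 for ILK, against a median of 24 over all regions. Long regions offer more windows, and the 3′ untranslated regions of TNS1, TNS3 and PARVA were 4871, 2922 and 7431 bases long, against 482 for RAB13. Among regions at least as long as its own, 4.85% matched TNS1, 6.92% matched TNS3 and 14.4% matched PARVA. The window was chosen as a measure after expression values had been seen, and it is a description of letters, not of a working element.

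Total counts were 55469030 to 83894938 per library. The biological coefficient of variation between replicates was 33% in pseudopodia, 17.6% in cell body and 5.08% for whole cell, so a spread shared over all groups may understate p-values that involve pseudopodia and overstate those of cell body against whole cell. GC content moved with the deviation of pseudopodia replicates 2 and 3 from their mean, with slopes of -0.29 and 0.34 log2 units per 10 percentage points of GC, while the other 7 libraries lay between -0.05 and 0.02. The 8 mesenchymal markers (NT5E, THY1, ENG, CD44, ALCAM, PDGFRB, COL1A1, COL1A2) were expressed in every group, with a summed level of 8790 to 10700 TPM (a read level corrected for gene length and library size) in pseudopodia, 18000 to 21800 TPM in cell body and 20200 to 21200 TPM in whole cell. All 8 passed the test as lower in pseudopodia than in cell body. Of other lineages, 5 haematopoietic markers summed to 30.1 to 36.8, 56.1 to 61.6 and 40.1 to 41.6 TPM across the 3 groups in that order, nearly all from CD34 and CD14, with PTPRC under 0.1 TPM on average in each group. The 5 epithelial markers summed to 211 to 279, 249 to 293 and 147 to 157 TPM, almost wholly KRT8 and KRT18, with EPCAM under 0.1 TPM on average in each group. The 5 endothelial markers summed to 38.8 to 50.0, 59.5 to 84.9 and 66.5 to 71.7 TPM, mostly TEK, and 5 adipocyte markers to 0.725 to 1.31, 0.642 to 0.812 and 1.3 to 1.62 TPM, with FABP4 at 0 on average in each group. Their part in the results was not tested.

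The plaque mRNAs did not move as a block. In pseudopodia against cell body, 3 of the 10 were higher (TNS1, TNS3, PTK2) and 2 were lower (VCL, ILK) at an edgeR adjusted p under 0.05. Over all genes tested, 38.5% were called in that comparison, 18.6% higher and 19.9% lower. These include genes with low counts. In a fit of only the 10917 genes with 5 CPM in 3 libraries, a larger share was called: 5430 genes, 2618 higher and 2812 lower. In pseudopodia against whole cell, 4 were higher (TNS1, TNS3, PTK2, ZYX) and 3 were lower (VCL, FERMT2, ILK), where 27.9% of all genes were called higher and 33.1% lower, or 61% in all. In cell body against whole cell, PTK2 was higher and ILK was lower, where 18.1% of all genes were called higher and 20.5% lower, or 38.6% in all. ILK enters all 3 tallies on counts that cannot be read as the level of its mRNA, as explained below. Libraries of pseudopodia and cell body did not overlap for 7 of the 10, against 47.1% of all genes tested, and those of pseudopodia and whole cell for 9, against 70%. The median log2 fold change of the 10 was 0.04, -0.04 and 0.01 in the 3 comparisons, against -0.05, -0.12 and -0.06 over all genes tested. On the log2(TPM + 1) scale the median over all genes was -0.17, -0.34 and -0.15, and the higher share of called genes was 28.1%, 25% and 30.9%, against 48.2%, 45.7% and 46.9% in the edgeR fit on counts. The comparisons share libraries, so they are not separate evidence for a gene. Member values are normalised read counts (CPM), corrected for library size with TMM factors. They are shares of a library's RNA, so the number of mRNA molecules in a protrusion was not measured.

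**Figure D1:**
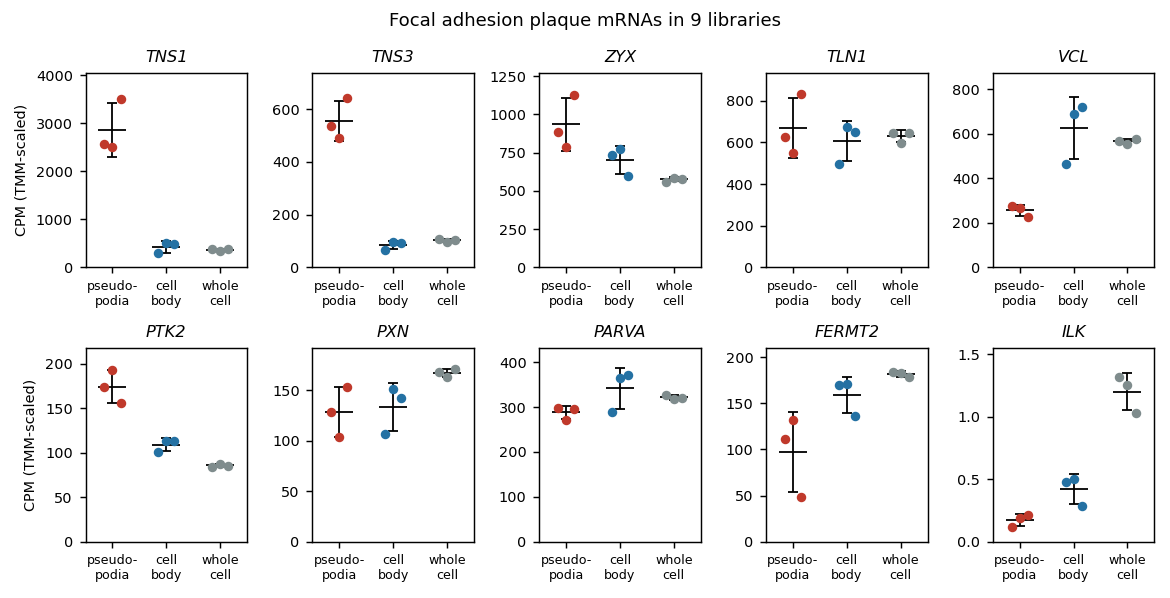
Level of each plaque mRNA in the 9 libraries, in CPM on a linear axis from 0 that differs between genes. Points are libraries, horizontal lines are group means and error bars are SD over 3 libraries. The pseudopodia libraries of TNS1 and TNS3 stand far above all others, and those of VCL and ILK lie below all others. The ILK counts cannot be read as the level of its mRNA.

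The tensins, which bind integrin tails through a phosphotyrosine-binding domain and actin at the other end, had the highest fold changes of the set in pseudopodia. TNS1 (ENSG00000079308, chr2:217799588-218033982, minus strand) had 2564, 2502 and 3514 CPM in pseudopodia, 290.4, 516 and 483 CPM in cell body, and 382, 349 and 379.7 CPM in whole cell. Every pseudopodia library was higher than every other library, and the cell body and whole-cell values overlapped. Its log2 fold change was 2.74 ± 0.22 (SE) in pseudopodia against cell body (6.66-fold, edgeR adjusted p = 4.28e-06) and 2.95 ± 0.22 against whole cell (7.73-fold, edgeR adjusted p = 1.58e-06). Of all genes tested, 1.29% had a fold change over cell body as high.

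TNS3 (ENSG00000136205, chr7:47275154-47582558, minus strand), a tensin that Src phosphorylates, had 537, 491 and 640.3 CPM in pseudopodia, 67.3, 94.95 and 92.2 CPM in cell body, and 106, 96.9 and 103 CPM in whole cell. Again no pseudopodia library overlapped another group, and here the cell body libraries all lay below the whole-cell libraries. The log2 fold change of TNS3 was 2.71 ± 0.17 in pseudopodia against cell body (6.56-fold, edgeR adjusted p = 5.96e-07) and 2.45 ± 0.16 against whole cell (5.45-fold, edgeR adjusted p = 6.29e-07). The genes TNS1 and TNS3 thus ranked 251 and 261 by fold change over cell body among the 19426 genes. Both were called under all 22 alternative settings in both comparisons, with log2 fold changes over cell body of 2.19 to 2.88 for TNS1 and 2.30 to 2.80 for TNS3.

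PTK2, which encodes focal adhesion kinase, was the other plaque mRNA called higher in pseudopodia against both other groups. PTK2 (ENSG00000169398, chr8:140657900-141002216, minus strand) had 174, 193 and 155 CPM in pseudopodia, 100.3, 114 and 113 CPM in cell body, and 84.5, 87.7 and 85.2 CPM in whole cell. The 3 groups did not overlap, with pseudopodia highest and whole cell lowest, and each difference was called. Its log2 fold change was 0.67 ± 0.12 in pseudopodia against cell body (1.6-fold, edgeR adjusted p = 0.00111), 1.02 ± 0.12 against whole cell (2.03-fold, edgeR adjusted p = 3.28e-05), and 0.35 ± 0.12 in cell body against whole cell (1.27-fold, edgeR adjusted p = 0.0406). The last call was kept in 11 of 22 alternatives and was lost without any 1 of the whole-cell libraries (adjusted p of 0.0833 to 0.121) and without cell body replicates 2 or 3 (0.113 and 0.0964) or pseudopodia replicate 1 (0.0581). In 17.6% of all genes the fold change over cell body was as high as for PTK2.

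PXN encodes paxillin, the adaptor that focal adhesion kinase phosphorylates. PXN (ENSG00000089159, chr12:120210439-120265771, minus strand) had 128, 104 and 154 CPM in pseudopodia, 107, 151 and 143 CPM in cell body, and 168, 163 and 171 CPM in whole cell. Pseudopodia and cell body overlapped, and both lay below whole cell. No difference of PXN passed the test in the fit reported, with log2 fold changes of -0.05 ± 0.17 in pseudopodia against cell body (edgeR adjusted p = 0.823), -0.38 ± 0.17 against whole cell (edgeR adjusted p = 0.0699) and -0.33 ± 0.17 in cell body against whole cell (edgeR adjusted p = 0.147). Of 22 alternatives, 2, 9 and 6 called PXN lower in these comparisons, in the same order. With per-library offsets for GC content and length, PXN was called lower in pseudopodia, by -0.42 against cell body (adjusted p = 0.00471) and -1.0 against whole cell (adjusted p = 1.02e-05). The offsets, here and for other genes, were fitted to each library's deviation from the mean over all 9 libraries. They therefore also take out any trend with GC content or length that differs between the groups, whatever its source. Of the exon bases of PXN, 12.4% lie in exons of genes on the other strand, mostly its antisense RNA PXN-AS1, and the strand setting of the counting is not given in the sources used here.

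Talin and vinculin are linkers that reach from integrin to actin. TLN1, talin, which binds the integrin tail, actin and vinculin, had 628, 549 and 831 CPM in pseudopodia, 496, 673 and 649 CPM in cell body, and 647, 599 and 647 CPM in whole cell (ENSG00000137076, chr9:35696948-35732395, minus strand). The 3 groups overlapped. The log2 fold change of TLN1 was 0.14 ± 0.17 in pseudopodia against cell body (edgeR adjusted p = 0.536) and 0.08 ± 0.17 against whole cell (edgeR adjusted p = 0.686), and its sign turned on the TPM scale, with voom weights, with GC and length offsets and without pseudopodia replicate 3 (-0.042 and -0.092 in the same comparisons). With those offsets TLN1 was called lower in pseudopodia than in cell body (-0.38, adjusted p = 0.000537) and than in whole cell (-0.60, adjusted p = 1.48e-05).

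VCL, vinculin, which talin binds when stretched and which recruits actin, was lower in pseudopodia. VCL (ENSG00000035403, chr10:73995193-74121363, plus strand) had 275, 267 and 228 CPM in pseudopodia, 464, 690.4 and 721 CPM in cell body, and 568, 555 and 576 CPM in whole cell. All pseudopodia libraries lay below all others, and cell body spanned the whole-cell values. Its log2 fold change was -1.29 ± 0.17 in pseudopodia against cell body (2.44-fold lower, edgeR adjusted p = 0.000113) and -1.14 ± 0.17 against whole cell (2.21-fold lower, edgeR adjusted p = 0.000138). VCL was called in both comparisons under all 22 alternatives, and 11.4% of all genes had a fold change over cell body as low. Exons of AP3M1 on the other strand cover 11.1% of its exon bases.

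FERMT2 encodes kindlin-2, which binds the integrin tail beside talin, and its pseudopodia libraries disagreed. FERMT2 (ENSG00000073712, chr14:52857268-52952435, minus strand) had 111, 132 and 48.5 CPM in pseudopodia, 169, 171 and 136 CPM in cell body, and 184, 183 and 178 CPM in whole cell. Every pseudopodia library was below the other groups, but replicate 3 was below its own replicates by more than they differed, and the coefficient of variation was 44.8% there. The log2 fold change was -0.71 ± 0.30 in pseudopodia against cell body (edgeR adjusted p = 0.0936) and -0.90 ± 0.30 against whole cell (1.87-fold lower, edgeR adjusted p = 0.0270). Without pseudopodia replicate 3 the first was -0.39 and passed the test (adjusted p = 0.0227), and without replicate 2 it was -0.997 (adjusted p = 0.0215). The whole-cell call was lost without any 1 whole-cell library (adjusted p of 0.0586 to 0.0671) and ended with GC and length offsets, where the log2 fold change was 0.04 (adjusted p = 0.793). With the same offsets FERMT2 was called lower in pseudopodia than in cell body (-0.415, adjusted p = 0.0278). The difference from cell body was called in 8 of 22 alternatives. FERMT2 has the lowest GC content of the set, 36.3%.

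ZYX has the highest GC content, 64.9%, and encodes zyxin, a LIM-domain protein of mature adhesions and stress fibres. ZYX (ENSG00000159840, chr7:143381080-143391111, plus strand) had 888, 789 and 1125 CPM in pseudopodia, 732, 774 and 599 CPM in cell body, and 559, 584 and 580.2 CPM in whole cell. The 3 groups did not overlap, with pseudopodia highest and whole cell lowest. The difference from whole cell passed the test (log2 fold change 0.70 ± 0.15, 1.63-fold, edgeR adjusted p = 0.00209), and that from cell body was 0.41 ± 0.15 with an edgeR adjusted p of 0.0507. The difference from cell body was called in 7 of 22 alternatives. In limma on log2(TPM + 1) the difference from whole cell was 0.22 (adjusted p = 0.122). With GC and length offsets the log2 fold change was 0.10 over cell body (adjusted p = 0.411) and 0.04 over whole cell (adjusted p = 0.730).

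ILK and PARVA encode partners in the ILK, PINCH and parvin complex, with ILK the pseudokinase at its centre and PARVA, alpha-parvin, its link to actin. ILK (ENSG00000166333, chr11:6603708-6610874, plus strand) had raw counts of 8, 14 and 11 in the pseudopodia libraries, 28, 30 and 20 in the cell body libraries, and 121, 86 and 64 in the whole-cell libraries, which is at most 1.82 TPM. Such counts cannot be read as the level of the mRNA, since 78.5% of the exon bases of ILK lie in exons of genes on the other strand, chiefly TAF10, and without a known strand setting reads there may have been assigned to either gene or to neither. On these counts the groups did not overlap. The log2 fold change of ILK was -1.28 ± 0.35 in pseudopodia against cell body (edgeR adjusted p = 0.0133), -2.81 ± 0.33 against whole cell (edgeR adjusted p = 3.00e-05) and -1.52 ± 0.30 in cell body against whole cell (edgeR adjusted p = 0.00258). Without pseudopodia replicate 1 the first was -1.06 and was not called (adjusted p = 0.0519).

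PARVA (ENSG00000197702, chr11:12377185-12535356, plus strand) had 297, 272 and 296 CPM in pseudopodia, 289, 364 and 372 CPM in cell body, and 327, 317 and 321 CPM in whole cell. It varied least of the set among pseudopodia, and cell body replicate 1 lay within the pseudopodia range. No difference of PARVA passed the test, with log2 fold changes of -0.25 ± 0.12 in pseudopodia against cell body (edgeR adjusted p = 0.144) and -0.16 ± 0.12 against whole cell (edgeR adjusted p = 0.289). With GC and length offsets it was called lower in pseudopodia than in cell body (-0.43, adjusted p = 0.00240), and in limma on log2(TPM + 1) it was called lower than in cell body and in whole cell (-0.52 and -0.61, adjusted p = 0.00439 and 0.000851). The purine-rich window printed for PARVA therefore stood in an mRNA that was not called higher in pseudopodia. Over all 355 genes with 29 or 30 purines in a window, 122 (34.4%) were called higher in pseudopodia than in cell body, against 2715 of the 13772 genes read (19.7%), and their median 3′ untranslated region was 3672 bases long against 1342.5 overall.

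**Figure D2:**
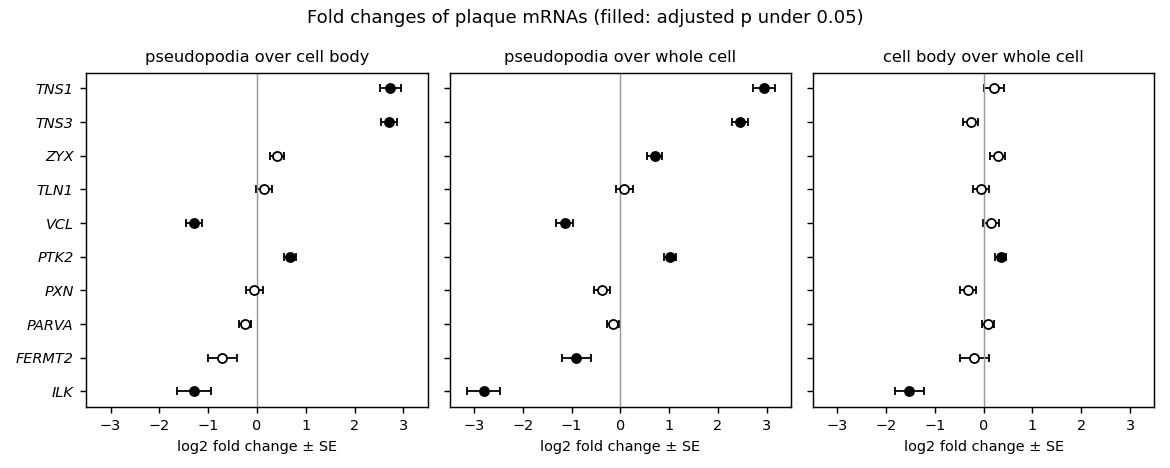
Log2 fold change of each plaque mRNA in the 3 comparisons, with its standard error. Filled points have an edgeR adjusted p under 0.05. TNS1 and TNS3 lie between 2.45 and 2.95 in both pseudopodia panels and VCL between -1.29 and -1.14, while in cell body against whole cell PTK2 and ILK are the filled points.

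Levels of different genes were compared per gene length, in TPM. TPM carries no TMM factors, so differences between groups in TPM are on another scale than the CPM results above. The 10 genes together held 2240 ± 252 TPM in pseudopodia, 1833 ± 157 TPM in cell body and 1884 ± 46.2 TPM in whole cell (SD, n = 3 each). In pseudopodia 26.3% ± 1.34 of that sum was TNS1, against 5.87% ± 1.34 in cell body and 5.61% ± 0.243 in whole cell. TNS3 held 6.69% ± 0.128, 1.52% ± 0.196 and 2.01% ± 0.0869 of the sum in the same groups. VCL took the opposite course, with 3.97% ± 0.904 in pseudopodia, 14.1% ± 2.69 in cell body and 14.1% ± 0.124 for whole cell. The share of ZYX, the most abundant of the set in every group, was 43.0% ± 1.35, 48.5% ± 6.16 and 43.6% ± 1.1. Shares of a sum are tied to each other, so the high share of the tensins lowers all others.

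**Figure D3:**
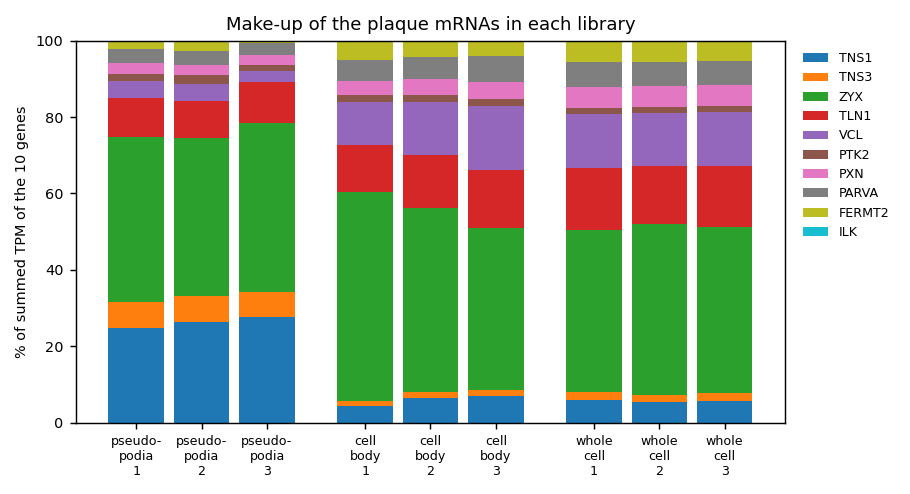
Share of each gene in the summed TPM of the 10 plaque genes, in percent, 1 bar per library. TNS1 takes 24.9% to 27.6% of the sum in the pseudopodia libraries and 4.34% to 6.84% in the cell body libraries, and VCL takes 2.93% to 4.59% and 11.4% to 16.7%.

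The order of the levels changed accordingly. In pseudopodia it was ZYX (965.9 ± 137 TPM), TNS1 (590.2 ± 92.5), TLN1 (227 ± 39.7), TNS3 (149.7 ± 14.1), VCL (87.3 ± 11.6), PARVA (78.4 ± 2.43), PXN (58.3 ± 8.79), PTK2 (43.2 ± 6.43), FERMT2 (39.5 ± 18.8) and ILK (0.168 ± 0.0475). Neighbours whose libraries overlapped there were VCL and PARVA, PXN and PTK2, and PTK2 and FERMT2. In cell body the order was ZYX (887 ± 102 TPM), VCL (259 ± 59.4), TLN1 (252 ± 39.9), PARVA (113 ± 15.7), TNS1 (109 ± 30.7), FERMT2 (77.6 ± 8.45), PXN (74.1 ± 13.1), PTK2 (32.9 ± 2.41), TNS3 (27.9 ± 5.04) and ILK (0.498 ± 0.134). There VCL overlapped with TLN1, PTK2 with TNS3, and each neighbour with the next through PARVA, TNS1, FERMT2 and PXN. Whole cells had ZYX at 821 ± 1.24 TPM, TLN1 at 297 ± 17.97, VCL at 265 ± 8.67 and PARVA at 120.5 ± 4.66. Below these stood TNS1 (106 ± 7.09), PXN (105 ± 3.94), FERMT2 (100.2 ± 3.59), TNS3 (37.9 ± 2.57), PTK2 (29.2 ± 0.458) and ILK (1.61 ± 0.226), with overlap between TNS1 and PXN and between PXN and FERMT2. TNS1 thus held place 2 in pseudopodia, against place 5 in both other groups, and TNS3 held place 4 in pseudopodia, against place 9 in cell body and place 8 in whole cell.

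Ratios between members within a library do not depend on how libraries are scaled, but they can depend on GC content. That is 57.7% for TLN1 and 45.1% for VCL, and 44.6% for PTK2 and 60.2% for PXN. Pseudopodia replicates 2 and 3 deviated with GC content, as given above, and its part in the ratios was not tested. The TPM ratio of TLN1 to VCL was 2.30, 2.07 and 3.67 in pseudopodia, 1.08, 0.981 and 0.905 in cell body, and 1.15, 1.09 and 1.13 in whole cell. Pseudopodia thus held more talin than vinculin mRNA per gene length, while the levels were near each other in the other groups, a log2 difference of 1.40 against cell body. The TPM ratio of PTK2 to PXN was 0.737, 1.00 and 0.549 in pseudopodia, 0.510, 0.408 and 0.431 in cell body, and 0.273, 0.292 and 0.271 in whole cell. The groups did not overlap for either ratio. The TPM ratio of TNS1 to TNS3 was 3.67, 3.91 and 4.22 in pseudopodia, 3.31, 4.17 and 4.02 in cell body, and 2.76, 2.76 and 2.84 in whole cell. Pseudopodia and cell body overlapped in it (log2 difference 0.04, two-sided exact permutation p = 0.8), and both lay above whole cell by 0.50 and 0.45 in log2. The ratio of ILK to PARVA, which rests on the ILK counts, differed by -1.05 in log2 in pseudopodia against cell body and by -2.68 against whole cell. Apart from TNS1 to TNS3 in pseudopodia against cell body, the groups did not overlap in any of the 12 comparisons of a ratio, each with an exact permutation p of 0.1, the smallest that 3 against 3 can give (0.109 after adjustment over the 12). How often ratios of other genes fail to overlap was not computed. Single genes, in CPM, did not overlap in 47.1%, 70% and 64.9% of all genes tested in the 3 comparisons. That is another measure than a ratio, so whether the lack of overlap is particular to these pairs cannot be told.

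Genes with a profile most like that of a member were sought for TNS1, TNS3 and ILK, which had the widest ranges of group means (2.93, 2.72 and 2.63 in log2 CPM). Likeness was the root mean square difference of log2 CPM over the 9 libraries, each profile centred on its own mean. Nearest to TNS1 were C6orf132 (0.13), KIF26B (0.15) and GGA2 (0.16), and TNS3 came at place 18 with 0.24. Among the nearest to TNS3 were SHC3 (0.09) and the lncRNA NRAV (0.10). Nearest to ILK were LINC00926 (0.105), EPSTI1 (0.20) and NEIL1 (0.23), of which LINC00926 had a mean of 0.301 CPM in pseudopodia, 0.727 in cell body and 1.86 for whole cell. Both ILK and LINC00926 had few reads, and the ILK counts cannot be read as the level of its mRNA. Likeness to ILK here is therefore likeness to those counts only.

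The wider adhesion machinery was read from 6 lists of 91 further genes, of which 88 were tested. The lists were chosen with earlier results of these data known, so their counts and medians are a description and not a test. In pseudopodia against cell body 31 of the 88 were called higher and 20 lower, where 18.6% of all genes tested were called higher and 19.9% lower, and the median log2 fold change was 0.13 against -0.05 over all genes. In pseudopodia against whole cell the counts were 41 higher and 14 lower (median 0.32 against -0.12), beside 27.9% and 33.1% of all genes. In cell body against whole cell they were 23 higher and 9 lower (median 0.10 against -0.06), beside 18.1% and 20.5% of all genes.

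Integrin chains, the membrane receptors to which the plaque is anchored, were lower in pseudopodia: 11 of 13 tested were called lower than in cell body and 0 higher, against 19.9% and 18.6% of all genes, with a median log2 fold change of -1.46. ITGA4, the chain that binds fibronectin and VCAM1, averaged 12.03 ± 7.83 CPM in pseudopodia and 52.2 ± 4.72 CPM in cell body (log2 fold change -2.11 ± 0.40, edgeR adjusted p = 0.00286), and without pseudopodia replicate 2 the log2 fold change of ITGA4 was -2.74. ITGA1, a collagen receptor chain, averaged 3.84 ± 2.33 and 15.9 ± 2.96 CPM in the same groups (-2.04 ± 0.42, edgeR adjusted p = 0.00428). ITGAV, the chain of vitronectin receptors, averaged 66.1 ± 35.0 and 250.4 ± 47.3 CPM (-1.92 ± 0.37, edgeR adjusted p = 0.00282). Against whole cell 9 integrin chains were called lower in pseudopodia and 1 higher (ITGA5), where 33.1% of all genes were called lower and 27.9% higher. The mesenchymal markers, several of which are membrane or secreted proteins too, were lower in pseudopodia beside them, as given above, and their part in this was not tested.

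Among genes for adhesion activation and turnover, 9 of 19 tested were called higher in pseudopodia than in cell body and 1 lower (APBB1IP), beside 18.6% higher and 19.9% lower of all genes, with a median of 0.41. KANK2, which binds talin and ties adhesions to cortical microtubule sites, averaged 1730 ± 229 CPM in pseudopodia and 313 ± 45.5 CPM in cell body (log2 fold change 2.47 ± 0.15, edgeR adjusted p = 5.92e-07). PPFIA1, liprin-alpha-1, averaged 229 ± 39.9 and 45.1 ± 9.89 CPM (2.34 ± 0.18, edgeR adjusted p = 2.89e-06), and ERC1, its partner at those sites, 249.6 ± 16.2 and 60.5 ± 14.2 CPM (2.05 ± 0.17, edgeR adjusted p = 5.00e-06). PHLDB1, PHLDB2, PPFIBP1, KANK1, SHARPIN and ITGB1BP1 were the other genes called higher.

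Among genes for actin linkage and LIM-domain proteins, 9 of 23 were called higher and 1 lower (TES), against the same shares of all genes (18.6% and 19.9%), with a median of 0.30. PALLD, palladin, an actin-bundling scaffold, averaged 1268 ± 508 CPM in pseudopodia and 163 ± 27.4 CPM in cell body (log2 fold change 2.96 ± 0.28, edgeR adjusted p = 2.55e-05). SVIL, supervillin, which ties myosin and actin to the membrane, averaged 402 ± 124 and 143 ± 23.9 CPM (1.49 ± 0.22, edgeR adjusted p = 0.000377). NEXN, an actin-binding protein, averaged 5.68 ± 5.26 and 1.35 ± 0.482 CPM (2.07 ± 0.60, edgeR adjusted p = 0.0220), and without pseudopodia replicate 2 the log2 fold change was 0.97 (adjusted p = 0.0270). The call of NEXN was lost in 7 of 22 alternatives: without cell body replicate 1 or 3 (adjusted p = 0.0720 and 0.0761), with voom weights (0.60, adjusted p = 0.297), in limma on log2(TPM + 1) and log2(TPM + 0.1) (0.999 and 1.35, adjusted p = 0.0937 and 0.0797), without a filter (adjusted p = 0.0962) and with 6 libraries (adjusted p = 0.0642).

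Among partners of focal adhesion kinase and paxillin, 7 of 16 were called higher and 2 lower (CRKL, NEDD9), with a median of 0.34. Of all genes 18.6% were higher and 19.9% lower there. YES1, a kinase of the Src family, averaged 190.0 ± 121 CPM in pseudopodia and 59.5 ± 14.3 CPM in cell body (log2 fold change 1.67 ± 0.41, edgeR adjusted p = 0.0105), and 1.05 without pseudopodia replicate 2. RAPGEF1, which activates the integrin regulator Rap1, averaged 269 ± 54.0 and 127 ± 21.4 CPM (1.08 ± 0.17, edgeR adjusted p = 0.000431). GIT1, which binds paxillin, averaged 153 ± 30.5 and 74.4 ± 7.33 CPM (1.04 ± 0.15, edgeR adjusted p = 0.000278).

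Of the close paralogs of the members, 5 of 12 tested were called higher (TLN2, TNS2, PARVB, PTK2B, TGFB1I1) and 3 lower (FERMT3, LPP, CTNNA1), with a median of 0.19. The lower count is near the 19.9% of all genes called lower, and 18.6% were called higher. TLN2, the other talin, averaged 77.1 ± 13.6 CPM in pseudopodia and 46.4 ± 11.8 CPM in cell body (log2 fold change 0.73 ± 0.19, edgeR adjusted p = 0.0113). Its call was kept in 17 of 22 alternatives and was lost with GC and length offsets (0.23, adjusted p = 0.0526, and 0.0927 with the replicate block added), in limma on log2(TPM + 1) (0.43, adjusted p = 0.0848) and log2(TPM + 0.1) (0.47, adjusted p = 0.0855), and in a fit of the 6 libraries alone (adjusted p = 0.0501). LPP, a paralog of zyxin, averaged 46.2 ± 16.6 and 74.4 ± 12.7 CPM (-0.69 ± 0.24, edgeR adjusted p = 0.0461) and lost its call in 11 of 22 alternatives, among them the omission of any library other than pseudopodia replicates 2 and 3. FERMT3, kindlin-3, averaged 1.23 ± 0.236 and 1.97 ± 0.189 CPM (-0.69 ± 0.22, edgeR adjusted p = 0.0288), and its call was lost without pseudopodia replicate 2, cell body replicates 1 or 3, or whole-cell replicate 2. That paralogs differ from the members or from each other was not tested.

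Of the partners of ILK and parvin, 2 of 6 were called higher (LIMS2, PARVB) and 2 lower (LIMS1, RSU1), with a median of 0.34, beside 18.6% and 19.9% of all genes. LIMS2, which encodes PINCH2, averaged 197 ± 40.0 CPM in pseudopodia and 114 ± 10.6 CPM in cell body (log2 fold change 0.79 ± 0.15, edgeR adjusted p = 0.00208). LIMS1, which encodes PINCH1, averaged 153 ± 61.5 and 260.2 ± 38.0 CPM (-0.76 ± 0.26, edgeR adjusted p = 0.0395). The PINCH pair thus lay on opposite sides, but the LIMS1 call was lost in 10 of 22 alternatives, among them without pseudopodia replicate 1, cell body replicates 1 or 3, or any 1 whole-cell library. RSU1, which binds PINCH1, averaged 53.9 ± 13.7 and 86.6 ± 3.47 CPM (-0.68 ± 0.17, edgeR adjusted p = 0.00868).

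**Figure D4:**
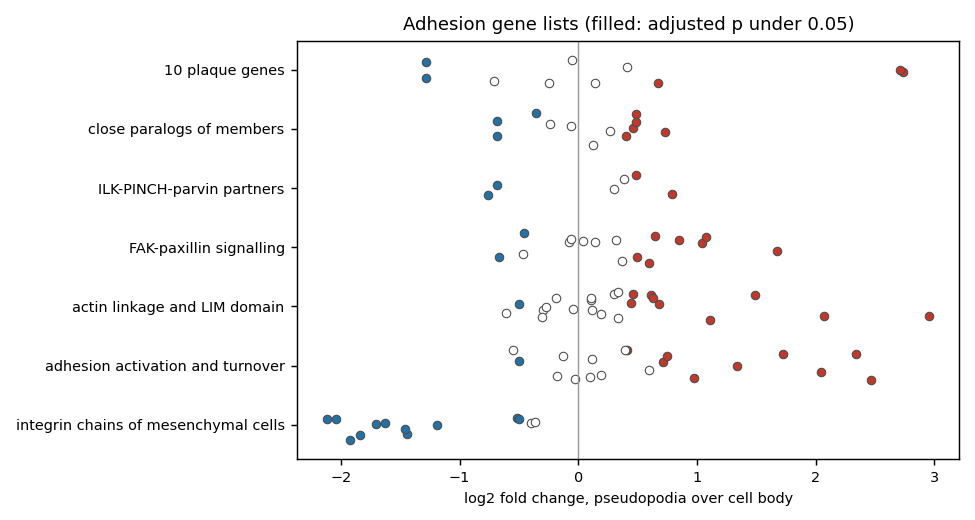
Log2 fold change in pseudopodia over cell body for the 10 plaque genes and for each tested gene of the 6 further lists, 1 point per gene, filled where the edgeR adjusted p is under 0.05. Of the integrin chains 11 of 13 are filled on the negative side, while the turnover and actin lists each have 9 filled points on the positive side and 1 on the negative.

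For 4 of the 10 genes (TLN1, VCL, TNS3, PARVA) the whole-cell mean lay between those of pseudopodia and cell body, as it did for 4894 of the 19426 genes tested (25.2%). For TNS1, PTK2 and ZYX the whole-cell mean was below both fractions, and for PXN, FERMT2 and ILK it was above both. The TNS1 means were 2860 ± 567, 429.6 ± 122 and 370.2 ± 18.5 CPM in pseudopodia, cell body and whole cell, and the PXN means were 129 ± 24.7, 134 ± 23.7 and 167 ± 4.02 CPM. For TNS1 the difference of cell body from whole cell did not pass the test (log2 fold change 0.22 ± 0.21, edgeR adjusted p = 0.441), nor did that for VCL (0.14 ± 0.16, edgeR adjusted p = 0.52). For TNS3 it was -0.27 ± 0.15 (edgeR adjusted p = 0.196), without overlap of the groups. TNS3 was called lower in cell body than in whole cell in 4 of 22 alternatives. These were limma on log2(TPM + 1) and log2(TPM + 0.1) (-0.44 and -0.46), and GC and length offsets with or without the replicate block (-0.45). Groups also did not overlap for PXN, ZYX, PTK2, FERMT2 and ILK in that comparison, of which PTK2 and ILK were called. With TNS3 these are 6 of the 10 members, and 64.9% of all genes tested did not overlap between cell body and whole cell, so the share is near the background.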

How the data were processed

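RNA of hTERT-MSC pseudopodia, cell bodies and whole cells was sequenced in 3 libraries each. The authors deposited whole-number read counts for each gene. The labels name featureCounts for them, and the submitters' processing notes name GRCh38 and DESeq2. A TPM table of each library was deposited too. Among genes well counted in every library, counts over TPM split into 1 factor per gene and 1 factor per library, within 0.1% for 100% of them. For the aligner, annotation release and strand setting, nothing was given in the sources used here. A blank line of the count table was left out. Groups came from the labels.

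From the counts, edgeR 4.0.16 (R 4.3.3) was run with TMM factors, its expression filter by group and the robust quasi-likelihood test on all 9 libraries in 1 fit. It was checked on simulated counts. Benjamini-Hochberg adjustment ran over all 19426 genes tested, and an adjusted p under 0.05 was called. Standard errors were derived from the test statistic. Levels between genes were compared in TPM, and ratios of TPM with a two-sided exact permutation test. Alternatives were other scalings and filters, DESeq2 1.42.0, limma 3.58.1 on weighted counts and on log2 TPM, 6 libraries in the fit, GC and length offsets (GC known for 96.1% of genes), a replicate block, and each library left out. Positions, exon overlaps and 3′ untranslated regions came from GENCODE 29, which may not be the release the authors counted with. Intervals of counts were not needed for the abundant members. The depth per library is given with the results, and the ILK counts limit its precision.

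The 10 members and all lists were chosen with earlier results of these data known. From each further list the up to 3 called genes with the largest change in pseudopodia against cell body were described, the other members as counts, and RAB13 was added for its sequence after its values had been seen. A gene near TNS3 in profile is not reported here.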

Additional observations from a re-analysis of the deposited data

How the results depend on the processing

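In pseudopodia against cell body and against whole cell, TNS1, TNS3, PTK2 and VCL kept direction and call under all 22 alternatives. Members called lower in pseudopodia against cell body numbered 2 in the fit reported, 4 with voom and with both TPM scales (pseudocounts 1 and 0.1), 6 with GC and length offsets and with the replicate block plus those offsets, and 1 to 3 when libraries were left out in turn. Against whole cell they were 3, and 6 with both TPM scales. They were 4 with upper-quartile factors, 5 CPM, voom, GC offsets with or without the block and without pseudopodia replicate 3, and 2 without a filter and without any 1 whole-cell library. In cell body against whole cell, members called higher were 1, against 0 with upper-quartile factors, the 5 CPM filter, both TPM scales and the replicate block, 2 without a filter, with 6 libraries and with the block plus offsets, 3 with GC offsets and 4 with voom, and 0 to 2 on leaving out libraries. Members called lower there were 1 (ILK), and 0 with the 5 CPM filter, which ILK did not pass. They were 2 with voom and with 6 libraries, 3 with both TPM scales, and 4 with GC offsets with or without the block. The 5 CPM filter left 10917 genes to test, of which 7516 were called against whole cell in pseudopodia (11842 reported) and 4667 in cell body (7501 reported). Voom called 11967 in cell body against whole cell. Fits of only the 6 libraries compared called 5549 of 17827 genes in pseudopodia against cell body, where 7475 of 19426 were reported. Such fits called 11305 of 19081 in pseudopodia against whole cell and 10734 of 18842 in cell body against whole cell. Apart from the smaller number of genes and the loss of ILK with the 5 CPM filter, the cause of these shifts was not tested.

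Signs turned as follows. The log2 fold change of TLN1 in pseudopodia against cell body was -0.029 with voom, -0.15 with both TPM scales and -0.38 with GC offsets with or without the block, and -0.042 to 0.27 on leaving out libraries; against whole cell it was -0.05 with 5 CPM, -0.02 with voom, -0.40 with both TPM scales, -0.60 with GC offsets with or without the block and -0.092 to 0.21 on leaving out libraries. For TLN1 in cell body against whole cell it was 0.010 without a filter, 0.009 with voom and -0.13 to 0.076 on leaving out libraries. PXN in pseudopodia against cell body ran from -0.20 to 0.075 on leaving out libraries. With GC offsets FERMT2 was 0.042 in pseudopodia and 0.46 in cell body against whole cell, and 0.025 and 0.45 with the block added. In cell body against whole cell, ZYX was -0.061 with GC offsets and -0.069 with the block added, VCL was -0.059 and -0.060 and TNS1 -0.003 and -0.004 on the TPM scales, and PARVA was -0.004 with upper-quartile factors and -0.10 on the TPM scales. The log2 difference of the TNS1 to TNS3 ratio in pseudopodia against cell body was -0.061 to 0.104 on leaving out libraries.

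Libraries with the same number did not deviate together (r from -0.0807 to 0.0901). Pseudopodia replicates 2 and 3 also deviated with GC content. Whether libraries with the same number came from the same insert or culture therefore cannot be told from these values. With the replicate block 6920, 11494 and 6798 genes were called in pseudopodia against cell body, pseudopodia against whole cell and cell body against whole cell, with 3 members higher and 3 lower, 4 and 3, and 0 and 1. Depth limits ILK alone among the members, at 8 to 121 counts per library.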
